A study of Mus musculus with 6 samples.

Results

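The immunoglobulin genes of the mouse were examined in RNA from spleen T cells. They were taken by symbol: the variable (V), diversity (D) and joining (J) segments and the constant (C) genes of the heavy chain (Igh), the kappa light chain (Igk) and the lambda light chain (Igl). The rule found 395 of the 49671 genes in the deposited tables. Of these, 217 lie in the Igh locus on chromosome 12 (113254830 to 116010093, mm10), 166 in the Igk locus on chromosome 6 (67555497 to 70726966) and 12 in the Igl locus on chromosome 16 (19061618 to 19260859). The heavy chain set holds 185 V, 20 D and 4 J segments with 8 C genes, the kappa set 160 V and 5 J segments with 1 C gene, and the lambda set 3 V and 5 J segments with 4 C genes. The annotation gives 133 of them a pseudogene biotype, 130 V and 3 D segments.

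The RNA came from CD3+ T cells of female F1 mice, enriched from spleen on columns. The mothers were C57BL/6 (mus) with 1 deleted copy of Xist, and the fathers were M. m. castaneus (cast). The labels give neither the ages nor whether each library is 1 animal, and p-values therefore measure the spread between libraries called biological replicates. Unstimulated cells were collected at once (day 0, 3 libraries), and stimulated cells were collected on day 2, after 48 h in culture with 1 µg/ml plate-bound anti-CD3 and 10 µg/ml soluble anti-CD28 (3 libraries). Both groups come from the same cross, and the stimulated group differs from the unstimulated one by the culture as well as by the antibodies. The immunoglobulin loci are autosomal, so both parental copies are present whichever X chromosome is silent.

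Developing B cells build a heavy chain gene by joining 1 V, 1 D and 1 J segment, and a light chain gene by joining 1 V and 1 J segment. The joined V exon is spliced to a constant gene, and class switching replaces Ighm and Ighd, the constant genes of naive B cells, by one for an IgG, IgE or IgA heavy chain. Plasma cells, the antibody-secreting descendants of B cells, hold far more immunoglobulin RNA than resting B cells. A B cell usually makes its heavy chain from 1 of its 2 parental alleles, which is known as allelic exclusion, and clones descended from 1 cell share the V segment and the allele. T cells rearrange their receptor genes in place of these.

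The sequences show what these short genes are, and why reads of one can resemble those of another. They were read from the GENCODE M21 transcripts of mm10, which is a C57BL/6 genome. The J segments of the 2 loci with most J reads are given first, with capitals marking the conserved motif searched for on the coding strand. In heavy chain J segments this is TGGGG, any 4 bases and GG, which begins with a tryptophan codon, and in light chain J segments TTNGG, any 4 bases and GG, which begins with a phenylalanine codon.
Ighj1: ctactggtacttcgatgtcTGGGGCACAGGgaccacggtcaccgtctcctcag
Ighj2: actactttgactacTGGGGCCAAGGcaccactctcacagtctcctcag
Ighj3: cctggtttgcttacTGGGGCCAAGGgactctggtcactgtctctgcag
Ighj4: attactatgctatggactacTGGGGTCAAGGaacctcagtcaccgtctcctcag
Igkj1: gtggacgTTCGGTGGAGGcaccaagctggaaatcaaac
Igkj2: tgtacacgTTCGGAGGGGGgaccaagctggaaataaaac
Igkj3: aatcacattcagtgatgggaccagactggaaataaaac
Igkj4: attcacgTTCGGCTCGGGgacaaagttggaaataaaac
Igkj5: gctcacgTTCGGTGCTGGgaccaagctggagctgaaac
All 4 heavy chain J segments held their motif, and Igkj3 and the lambda segment Iglj3p were the 2 of 10 light chain J segments without it. Before stimulation Igkj3 was nevertheless read at a level close to those of Igkj4 and Igkj5, and above those of Igkj1 and Igkj2.

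The V segments end in a conserved stretch around a cysteine codon. The last 60 bases are shown for the V segment with the highest mean level of the Igh and of the Igk locus, for Iglv1 and Iglv2, which are close copies, and for Igkv8-28, whose parental shares differed widely between libraries. Capitals mark TANTNNTGN, which covers a tyrosine codon, 1 further codon and the cysteine codon.
Ighv9-3: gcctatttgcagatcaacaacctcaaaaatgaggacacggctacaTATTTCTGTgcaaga
Igkv10-96: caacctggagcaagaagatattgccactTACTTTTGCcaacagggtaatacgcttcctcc
Iglv1: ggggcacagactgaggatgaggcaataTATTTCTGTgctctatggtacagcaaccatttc
Iglv2: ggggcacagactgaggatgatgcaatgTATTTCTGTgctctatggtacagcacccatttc
Igkv8-28: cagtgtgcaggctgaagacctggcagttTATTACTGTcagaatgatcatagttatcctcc
In this window the motif was present in 108 of 115 heavy chain V segments outside the pseudogene biotypes (93.9%) and in 41 of 70 inside them (58.6%). For kappa the counts were 97 of 100 and 37 of 60 (61.7%), and for lambda 2 of 3. Over the last 290 bases, the median V segment was 93.5% identical to its nearest relative in the Igh locus and 93.1% in the Igk locus. The identity was at least 98% for 14 heavy chain and 6 kappa V segments, and Iglv1 and Iglv2 were 97.6% identical. Values of such close relatives are uncertain, because the sources used here do not say how reads that match several genes were counted.

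The libraries carried 9606755 to 20249376 reads assigned to an allele, and expression was given as RPKM (reads per kilobase of gene, scaled to the library's size), so that levels of genes can be compared per length. Fold changes below are differences of mean log2(RPKM + 1), stimulated minus unstimulated, and ratios are of mean RPKM. A gene was tested with limma where it reached 1 RPKM in at least 3 of 6 libraries, with Benjamini-Hochberg adjustment over all 13288 genes tested and a threshold of 0.05. The labelled T cells carried T cell transcripts in both groups, with Cd3e, a CD3 chain, at 65.7 to 81.3 RPKM unstimulated and 37.4 to 42.6 stimulated. Over all tested genes the median change was -0.24 in the deposited scaling. It was 0.02 with medians centred and 0.04 with quantile-normalised values. These shifts are small beside the changes of most immunoglobulin genes.

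Immunoglobulin RNA was abundant in the unstimulated T cell preparations and low in the stimulated ones. The 395 genes summed to 6340, 8692 and 10188 RPKM in the unstimulated libraries, or 1.92%, 2.54% and 3.02% of the RPKM of all genes. In the stimulated libraries they summed to 186, 134 and 242 RPKM, or 0.0526%, 0.0386% and 0.07%. The lowest unstimulated sum was thus far above the highest stimulated one, and the group means, 8407 ± 1940 and 187 ± 53.8 (SD, n = 3 each), differed 44.95-fold. In reads assigned to an allele the share was 0.687%, 0.906% and 0.984% unstimulated and 0.017%, 0.0109% and 0.0207% stimulated. In bulk RNA, fewer cells of a type and less RNA per cell cannot be told apart.

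**Figure D1:**
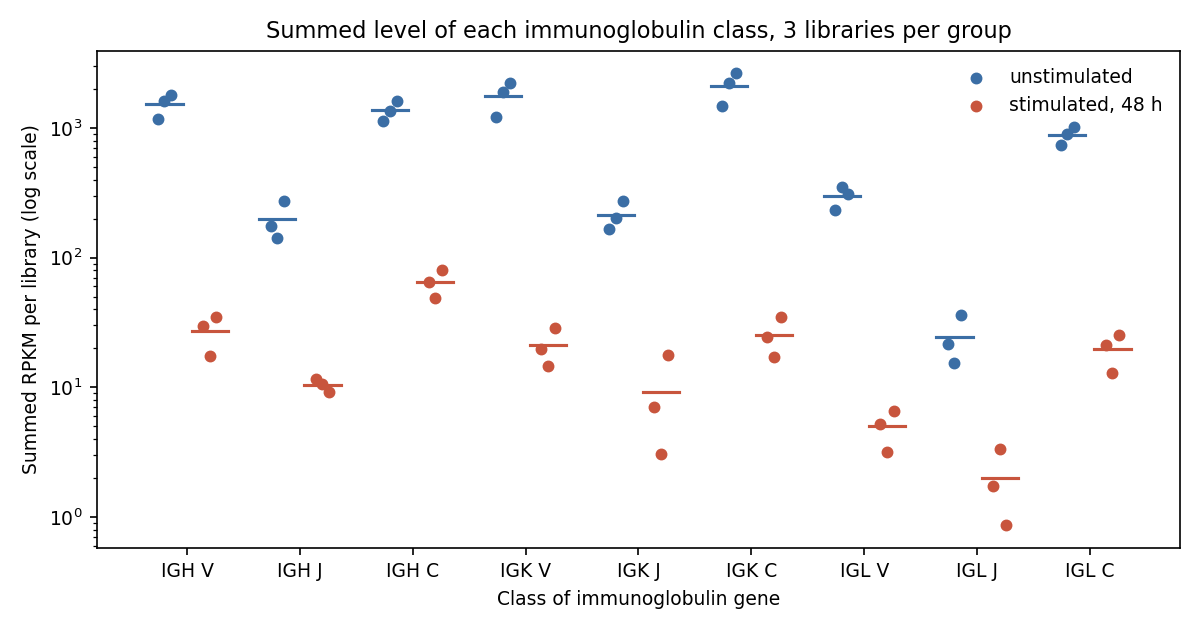
Summed RPKM of each class of immunoglobulin gene in each library on a log axis, with 3 unstimulated (blue) and 3 stimulated (red) libraries per class and a bar at each group's mean. D segments are left out because 1 library is at 0. In each class shown the 3 unstimulated libraries lie above the 3 stimulated ones.

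Each class was lower in every stimulated library than in every unstimulated one, but not by the same ratio. Heavy chain V segments summed to 1526 ± 322 RPKM unstimulated and 27.4 ± 8.91 stimulated, a ratio of 55.7. Kappa V segments went from 1767 ± 507 to 21.1 ± 7.13 RPKM, a ratio of 83.7, and lambda V segments from 297 ± 58.1 to 5.01 ± 1.72 RPKM, a ratio of 59.2. The heavy chain constant genes had the smallest ratio among V and C classes, 21.2, from 1366 ± 241 to 64.5 ± 15.4 RPKM, while Igkc alone had 83.1 and the lambda constant genes 44.5. J segments had ratios of 18.9 (heavy), 23.2 (kappa) and 12.3 (lambda), on low values.

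Gene by gene, 206 of the 207 immunoglobulin genes tested fell with limma, 0 rose and 1, Iglj3p, did not pass (log2 -2.04, adjusted p = 0.0548). Of all genes tested 48.9% were called lower and 31.2% higher, together 80.1%. With medians centred this background became 5206 lower and 5432 higher calls, in place of 6494 and 4148, while 206 immunoglobulin genes were again lower. The 2 groups did not overlap in any of the 207, against 50.7% of all tested genes with this direction. These counts are limited by the filter: 168 of the 207 had no stimulated library at 1 RPKM and entered the test through the unstimulated group. For these 168 the filter itself fixed that the groups did not overlap, so the 50.7% is no measure for them. The counts over all members give the full account. Of the 395 genes, 87 were listed at 0 in all 6 libraries, 305 had a lower mean after stimulation and 3 a higher one, namely Ighd5-6, Ighd2-7 and Iglj4, each with a value in 1 stimulated library alone. A limma fit without the filter called 242 of the 308 genes with any value lower, 0 higher, against 35.3% lower and 18.3% higher of the 25955 genes in that fit. In that fit the 66 others did not pass.

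**Figure D2:**
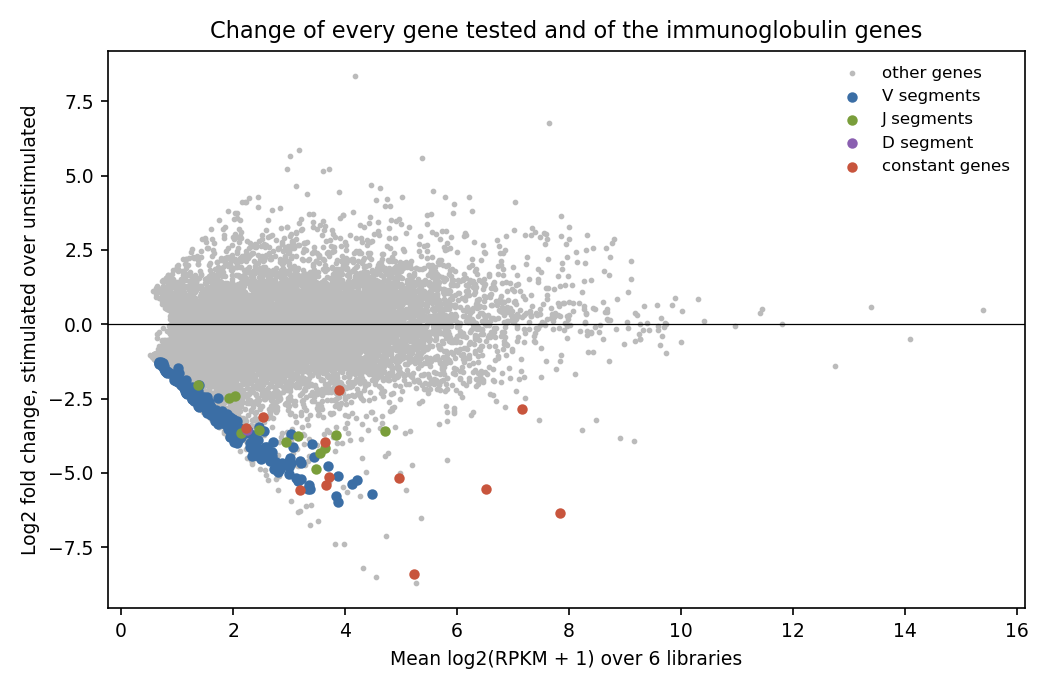
Log2 fold change, stimulated over unstimulated, against the mean log2(RPKM + 1) over 6 libraries, for the 13288 genes tested (grey) and the 207 immunoglobulin genes among them by role (coloured). Every immunoglobulin point lies below 0, many along the lower edge that genes near 0 in the stimulated group define. The constant gene at the lowest point is Igha, and the highest constant gene is Ighg1.

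Only 13 of the tested immunoglobulin genes kept at least 1 RPKM in all 3 stimulated libraries: Ighm, Ighg1, Igkc, Iglc1, Iglc2, Iglc3, the J segments Ighj3, Ighj4 and Igkj5, and the V segments Ighv2-9, Ighv3-2, Iglv1 and Iglv2. At the other end, 13 tested genes were listed at 0 in all stimulated libraries.

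The heavy chain constant genes split widely. Igha, the constant gene of IgA, the antibody of mucosal surfaces (chromosome 12, 113254830 to 113260236, minus strand), stood at 607, 734 and 735 RPKM unstimulated and at 1.09, 0.851 and 1.26 stimulated. It went from the most abundant heavy chain constant gene to a trace, with a log2 fold change of -8.39 ± 0.106 (SE, limma adjusted p = 1.51e-07), the largest fall of the family. Ighm, the constant gene of IgM (113418558 to 113422730), stood at 333, 321 and 526 RPKM and then at 52.9, 41.4 and 65.9. Its groups did not overlap either, but the ratio was 7.36 against 650 for Igha (log2 -2.84 ± 0.238, limma adjusted p = 4.68e-05).

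The IgG genes did not move alike. Ighg2b held 44.0, 67.9 and 82.1 RPKM unstimulated and 0.435, 0.324 and 0.208 stimulated (log2 -5.59, limma adjusted p = 2.55e-06). Ighg2c fell from 49.7, 110 and 97.6 RPKM to 1.11, 0.459 and 1.399 (log2 -5.40), and Ighg3 from 63.8, 80.0 and 88.9 to 1.34, 0.683 and 1.81 (log2 -5.13). Ighg1 was the exception among them, at 15.2, 35.4 and 55.4 RPKM unstimulated and 6.43, 4.33 and 7.29 stimulated, a ratio of 5.87 (log2 -2.22 ± 0.442, limma adjusted p = 0.003). It was the lowest of the 4 IgG genes by mean level before stimulation and the highest after it.

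Ighd, the constant gene of IgD, which naive B cells express together with Ighm, fell from 15.5, 11.3 and 23.5 RPKM to 1.10, 0.496 and 1.43 (log2 -3.12, limma adjusted p = 6.97e-05). Ighe, the constant gene of IgE, was too low to be tested, at 0.134, 1.21 and 0.803 RPKM unstimulated and 0.386, 0.351 and 0.481 stimulated. It was the one heavy chain constant gene whose groups overlapped.

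As a result the make-up of the heavy chain constant RNA differed between the groups. Ighm was 28.6% ± 4.63 of its summed RPKM unstimulated and 83.0% ± 1.54 stimulated (SD, n = 3 each). Igha went from 51.1% ± 4.73 to 1.66% ± 0.084, and Ighg1 from 2.46% ± 1.05 to 9.31% ± 0.554. Without Ighm and Ighg1 the other 6 genes summed to 938 ± 137 RPKM and to 5.07 ± 1.74, a ratio of 185.

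**Figure D3:**
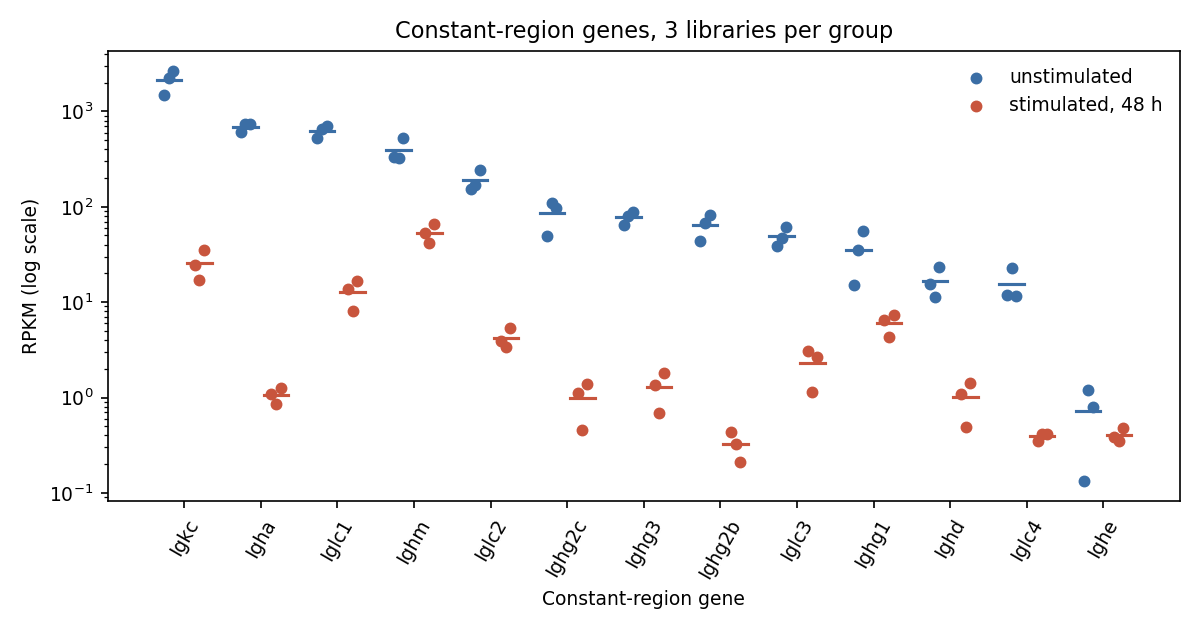
RPKM of the 13 constant genes in each library on a log axis, ordered by unstimulated mean, with 3 unstimulated (blue) and 3 stimulated (red) libraries each and a bar at the group mean. Igha drops from 607 to 735 RPKM to about 1, Ighm and Ighg1 lie closest to their unstimulated values among the tested genes, and the groups overlap for Ighe alone.

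Light chain constant genes fell by amounts between those of Ighm and Igha. Igkc, the single kappa constant gene (chromosome 6, 70726435 to 70726966, plus strand), was the most abundant immunoglobulin gene before stimulation, at 1484, 2225 and 2636 RPKM, and stood at 24.4, 17.1 and 34.8 after it (log2 -6.34 ± 0.299, limma adjusted p = 4.60e-06). Iglc1 (chromosome 16, 19061618 to 19062071, minus strand) fell from 527, 654 and 696 RPKM to 13.7, 8.01 and 16.8 (log2 -5.55). Iglc2 fell from 155, 171 and 243 RPKM to 3.95, 3.41 and 5.37 (log2 -5.17). All 3 were lower in every stimulated library by more than the spread within either group.

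The smaller lambda genes did the same, Iglc3 from 38.9, 47.2 and 61.8 RPKM to 3.06, 1.14 and 2.65 (log2 -3.96) and Iglc4 from 11.8, 23.0 and 11.5 to 0.350, 0.412 and 0.418 (log2 -3.49). Iglc2 and Iglc3 are 94.3% identical over the bases compared, and reads could be divided between them. The kappa share of light chain constant RPKM was 70.2% ± 2.84 unstimulated and 56.2% ± 2.26 stimulated (SD, n = 3 each).

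Ratios between genes of the same library show the unequal change without depending on library scaling. In all, 8 such ratios were compared, chosen with these results known, and each gave an exact two-sided permutation p of 0.1 (0.1 after Benjamini-Hochberg adjustment), the smallest that 3 against 3 libraries allow. Ighm over Igkc was 0.224, 0.144 and 0.200 unstimulated and 2.17, 2.42 and 1.89 stimulated. Ighm over Igha went from 0.567 ± 0.140 to 49.9 ± 2.19, and Ighg1 over Ighg2b from 0.514 ± 0.164 to 21.04 ± 12.1. In stimulated libraries the RPKM of the gene Ighm thus exceeded that of Igkc, the reverse of the order before stimulation.

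Ratios to Cd79a, which encodes a signalling chain of the B cell receptor, went in both directions. Cd79a itself fell from 37.2, 36.1 and 67.0 RPKM to 3.12, 1.89 and 3.32 (log2 -3.62). Ighm over Cd79a was higher in each stimulated library than in each unstimulated one, at 8.56 ± 0.610 and then 19.6 ± 2.50, and Ighg1 over Cd79a was 0.738 ± 0.295 and then 2.18 ± 0.117. Igkc over Cd79a was lower, at 46.9 ± 12.7 and then 9.11 ± 1.32. The 2 remaining ratios were Iglc1 over Igkc, at 0.305 ± 0.0467 and 0.505 ± 0.0512, and Igha over Jchain, at 3.80 ± 0.408 and 13.8 ± 5.76, where Jchain, which encodes the chain that joins IgA and IgM into polymers, was under 0.2 RPKM in the stimulated libraries.

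Because a V exon is spliced to a constant gene, the ratio of summed V to summed constant RPKM was also taken per locus. For kappa it was 0.833 ± 0.0141 unstimulated and 0.833 ± 0.0214 stimulated (SD, n = 3 each), so the group means were equal within their spread. For lambda it was 0.337 ± 0.0443 and 0.252 ± 0.00891. For the heavy chain it was 1.04, 1.18 and 1.12 unstimulated and 0.461, 0.359 and 0.437 stimulated, and the groups did not overlap. Set against the constant genes other than Ighm and Ighg1, the heavy chain V sum gave 1.62 ± 0.126 and 5.44 ± 0.126. In allelic reads the heavy chain ratio went the other way, by 0.15 on the log2 scale, and there Igha, with 97212 allelic reads over the 3 unstimulated libraries, outweighed Ighm with 5267. The direction for the heavy chain is therefore that of RPKM alone.

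**Figure D4:**
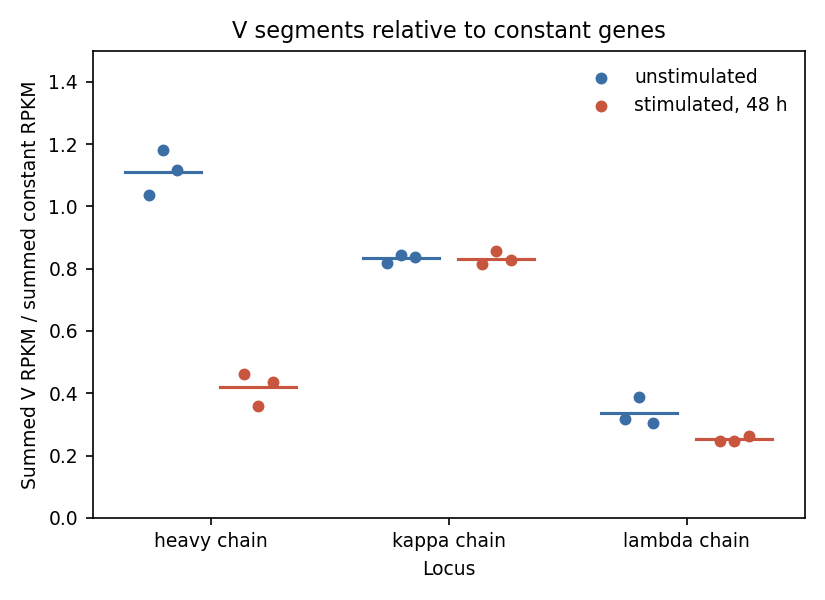
Summed V segment RPKM divided by summed constant gene RPKM for each locus and library, with 3 unstimulated (blue) and 3 stimulated (red) libraries and a bar at the group mean. The kappa groups coincide near 0.833, and the heavy chain groups lie apart, at 1.04 to 1.18 and 0.359 to 0.461.

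The V segments were read broadly. In the unstimulated libraries 127, 129 and 132 of the 185 heavy chain V segments and 114, 121 and 130 of the 160 kappa V segments had a value above 0, and 15 or 16 segments made up 50% of the V sum of a locus. The most abundant heavy chain segment was Ighv9-3 (chromosome 12, 114140692 to 114141122), at 98.7, 121 and 118 RPKM unstimulated and 2.13, 0.999 and 2.20 stimulated (log2 -5.38). Next came Ighv4-2, at 59.5, 77.5 and 133 RPKM and then 1.94, 0.918 and 1.77 (log2 -5.10), and Ighv3-2, at 63.5, 58.2 and 77.3 and then 1.95, 1.53 and 1.04 (log2 -4.75). Both carry a pseudogene biotype. Ighv5-17 completed the 4 highest, at 38.7, 50.03 and 89.2 RPKM unstimulated (log2 -5.22).

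Among kappa V segments Igkv10-96 (chromosome 6, 68631963 to 68632442) led with 86.8, 119 and 147 RPKM unstimulated and 0.673, 0.206 and 2.06 stimulated (log2 -5.98, the largest fall of a V segment on this scale). For genes near 0 after stimulation the starting level limits this log2 fall. By ratio of means Igkv5-48 fell further, with 237 (log2 -4.42) against 120 for Igkv10-96. Igkv1-110 held 71.4, 143 and 110 RPKM (log2 -5.76), Igkv1-117 held 49.5, 80.7 and 85.2 (log2 -5.53), and Igkv15-103 held 47.9, 67.2 and 97.1 (log2 -5.54). Igkv10-94, another of the 10 largest falls, went from 52.4, 75.0 and 72.1 RPKM to below 1 in each stimulated library (log2 -5.40). Stimulated replicate 3 was the highest stimulated library for the 3 kappa segments with most RPKM.

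Lambda V usage was simple, since the locus has 3 V segments. Iglv2 held 124, 208 and 159 RPKM unstimulated and 1.32, 1.97 and 3.19 stimulated (log2 -5.72). Iglv1 held 95.7, 125 and 123 and then 2.75, 1.23 and 2.31 (log2 -5.25). Iglv3 was far lower, at 14.0, 13.6 and 27.4 RPKM, and was listed at 0 in 1 stimulated library (log2 -3.47). The 2 close copies thus carried most lambda V reads in both groups.

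Of the V segments with at least 1 RPKM in every stimulated library, Ighv2-9 had the smallest ratio between the groups, 25.3, from 31.8, 45.2 and 50.3 RPKM to 1.88, 1.07 and 2.09 (log2 -4.02). Ighv3-2 had 44.0, Iglv1 54.6 and Iglv2 75.9. All of these ratios exceed the 7.36 and 5.87 of Ighm and Ighg1.

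By family, the share of the V sum varied less than the level. The 93 segments of Ighv1, the largest family, summed to 434 ± 106 RPKM unstimulated and 7.70 ± 4.16 stimulated, which was 28.5% and 28.1% of the heavy chain V sum. Ighv2 made up 8.94% and 13.9%, Ighv5 10.3% and 6.60%, and Ighv9 11.5% and 11.9%. Among kappa families Igkv1 made up 13.5% and 11.5% of the kappa V sum, Igkv6 12.3% and 10.9%, Igkv10 10.5% and 7.74%, and Igkv17 3.18% and 8.15%. Stimulated shares rest on low V sums, with group means of 27.4 RPKM for the heavy chain and 21.1 for kappa.

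The V profile was similar between unstimulated libraries. Across heavy chain V segments, log2 levels correlated between unstimulated libraries with Pearson r of 0.954 to 0.959, and across kappa segments with 0.950 to 0.962. Between stimulated libraries r was 0.756 to 0.827 for the heavy chain and 0.534 to 0.706 for kappa, where most segments had few reads. Between the groups r was 0.688 to 0.805 for the heavy chain and 0.591 to 0.756 for kappa. All V segments entered, also the 47 heavy chain and 26 kappa segments at 0 in all 6 libraries, and shared zeros can raise r. These are descriptions across genes that share a library and its depth, and genes are not independent replicates.

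J segments fell as well, on low values. Ighj4 stood at 82.0, 64.7 and 138 RPKM unstimulated and at 7.73, 7.18 and 5.17 stimulated (log2 -3.58, limma adjusted p = 3.49e-05), and Ighj3 at 48.3, 38.5 and 75.5 and then 3.20, 1.54 and 1.37 (log2 -4.17). Of the kappa J segments, Igkj4 held 50.6, 56.8 and 74.4 RPKM and then 1.16, 0 and 3.03 (log2 -4.89), and Igkj5 39.99, 49.6 and 65.7 and then 1.57, 1.76 and 7.43 (log2 -3.73). Igkj3, the kappa J segment without the motif, held 41.8, 54.8 and 61.3 RPKM and then 1.73, 0 and 5.62 (log2 -4.33). In these 3 kappa segments and in Igkj1 stimulated replicate 3 was the highest of its group, while for Igkj2 it was the lowest.

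Iglj1 and Iglj3 fell from 10.45, 7.23 and 7.88 RPKM and from 8.84, 7.23 and 7.88 RPKM to at most 1.46 and 1.16 (log2 -2.41 and -2.47). Iglj3p, which did not pass, was at 2.41, 1.03 and 20.1 RPKM unstimulated and at most 0.486 stimulated, so that 1 unstimulated library held most of its reads. In all, 11 of 12 tested J segments fell, and Iglj2 was listed at 0 throughout.

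D segments are so short that few reads can be counted on them. Low RPKM values fall on whole multiples of a smallest step per library, and the size of that step in reads is not settled here. The 11-base segment Ighd4-1, ctaactgggac, is shown because it was the one D segment tested. Its values were 5, 3 and 8 steps unstimulated and 0, 1 and 0 steps stimulated, which is 13.9, 10.7 and 24.2 RPKM against 0, 1.68 and 0 (log2 -3.56, limma adjusted p = 0.000349). Another 6 D segments had at most 2 steps in any library, among them Ighd1-1 with 0, 1 and 1 unstimulated and 0, 1 and 0 stimulated, and 13 were listed at 0 throughout. A high RPKM on 11 bases is thus a handful of steps.

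Other B cell genes were lower too, in a list chosen with earlier results of these libraries known. Of 26 genes of the B cell receptor, its coreceptors and B cell transcription factors, 23 fell, 1 rose and 2, Fcer2a and Pou2af1, did not pass, and the median log2 change was -2.22, where that of all genes tested was -0.24. Cd79a led, with Fcrla (log2 -3.57), Ly6d (-3.27) and Cd180 (-3.07). Among all genes tested 48.9% were called lower and 31.2% higher. The list summed to 338, 293 and 507 RPKM unstimulated and to 83.4, 68.0 and 100 stimulated, a much smaller ratio than the immunoglobulin sum, and 11 of its genes kept 1 RPKM in every stimulated library. Tnfrsf13b, a receptor for the B cell survival factors BAFF and APRIL, was the gene that rose, from 6.65, 7.17 and 11.01 to 12.3, 12.7 and 12.6 RPKM (log2 0.58, limma adjusted p = 0.0163), and without unstimulated replicate 2 no gene of the list rose. The highest stimulated means of the list were those of Cd37 (20.1 RPKM), Pou2af1 (17.9) and Tnfrsf13b (12.6). Their unstimulated means were 52.4, 23.0 and 8.28 RPKM, while Cd79a went from a mean of 46.8 to 2.78. The ratio of the list sums therefore understates the falls of genes such as Cd79a.

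The plasma cell and secretion list was mixed. Of 18 tested genes 9 fell, 7 rose and 2 did not pass (median log2 -0.18), where 48.9% of all genes tested were called lower and 31.2% higher. Jchain fell from 143, 196 and 215 RPKM to 0.140, 0.0587 and 0.0652 (log2 -7.40). Derl3, of protein quality control in the endoplasmic reticulum, fell by 2.44 and Trp53inp1 by 2.34 on the log2 scale, and Tnfrsf17, the receptor BCMA of plasma cells, was listed at 0 in all stimulated libraries (1.88 to 3.85 RPKM before). Irf4, which activated T cells express as well, rose from 15.1, 14.8 and 17.3 to 223, 232 and 213 RPKM (log2 3.74). Pim2 (log2 1.95), Ell2 (0.88) and Slamf7 (0.57) rose too. Prg2 (log2 -1.84), Mzb1 (-1.34) and Prdm1 (-0.63) fell. Sdc1, a plasma cell marker, did not pass, at means of 2.43 and 2.15 RPKM (log2 -0.11, limma adjusted p = 0.551). Genes of the list with a role in the secretory pathway went both ways: Fkbp11 (log2 1.38), Xbp1 (1.03) and Creld2 (0.89) rose, Sec11c (-0.81) and Edem1 (-0.26) fell as Derl3 did, and Txndc5 did not pass (0.11, limma adjusted p = 0.332).

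In the unstimulated libraries the constant genes did not share one order. Ighm was highest in replicate 3, at 526 RPKM against 333 and 321, as was Cd79a, at 67.0 against 37.2 and 36.1. Igha was lowest in replicate 1 and nearly equal in replicates 2 and 3, at 734 and 735 RPKM, and Jchain had its lowest value in replicate 1 too, at 143 against 196 and 215. With 3 libraries these orders are given as values and were not tested.

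Genes of V(D)J recombination, the surrogate light chain and class switching were split. Of 18 such genes 13 were tested, of which 5 rose, 5 fell and 3 did not pass (median log2 0.01). The shares over all genes tested were 31.2% higher and 48.9% lower. Rag1, the recombinase of lymphocyte precursors, fell from 1.92, 2.06 and 3.72 RPKM and was listed at 0 in the stimulated libraries (log2 -1.80). The repair genes Msh6 (log2 1.22) and Ung (1.09) rose, and Hmces fell (-1.07). The antigen presentation genes of MHC class II, which B cells share with macrophages and dendritic cells, fell in 10 of 10 (median log2 -2.69), led by H2-Aa (-3.37), Cd74 (-3.23), H2-Ab1 (-2.98) and H2-Eb1 (-2.96).

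Markers of other cell types moved with the immunoglobulin genes. The counts below stand against 48.9% of all genes tested called lower and 31.2% called higher. Of 18 tested myeloid markers 18 fell, and their sum went from 1390, 1829 and 4247 RPKM to 5.47, 5.12 and 8.29. The deepest falls on the log2 scale were those of Lyz2 (log2 -8.69), S100a9 (-8.52), S100a8 (-8.19) and Lyz1 (-7.39), of which Lyz2 and S100a9 exceed Igha on that scale. Of 12 NK cell markers 11 fell and 1 rose, with a sum of 521 to 683 RPKM and then 186 to 222, led by Tyrobp (log2 -4.996), Ncr1 (-4.79), Klra8 (-3.89) and Klra9 (-3.43). Of 10 tested erythroid and platelet markers 8 fell and 2 did not pass, with sums of 88.1, 836 and 1375 RPKM and then 3.16 to 16.5, led by 4 globin genes, Hbb-bs (log2 -5.31) and Hbb-bt (-5.52) of the beta cluster and Hba-a1 (-5.66) and Hba-a2 (-5.78) of the alpha cluster. The T cell list of 20 genes had 11 falls, 3 rises and 6 that did not pass, and summed to 2201 to 2677 RPKM and then 1919 to 1999. Its largest changes were falls, of Tcf7 (log2 -2.25), Lef1 (-1.73), Cd3g (-1.20) and Bcl11b (-1.07). The myeloid markers Adgre1, C1qa, C1qb, Camp, Elane and Ngp were at 0 in all stimulated libraries, and unstimulated replicate 3 had the highest myeloid, erythroid and B cell sums. The part of these other cells in the immunoglobulin results was not tested. Without unstimulated replicate 3, the limma fit called all 208 immunoglobulin genes it tested lower, with the filter at 2 libraries.

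The allelic reads give the parental copy to which reads were assigned, by a procedure not given in the sources used here. Below, reads from cast or from mus are reads so assigned. The cast share is the share of cast among the mus and cast reads of a gene, and it was 49.3% to 49.4% over all autosomal genes in every library. Of 199 immunoglobulin genes with at least 30 allelic reads in the unstimulated group, edgeR's quasi-likelihood test (Benjamini-Hochberg over 14400 autosomal genes) called 50 higher from cast and 52 higher from mus. Of all genes tested 11.6% were called higher from cast and 16.4% from mus, together 28.0%. A pooled cast share of at least 90% or at most 10% was seen in 40 of the 199 (20.1%), all of them V segments, against 558 of 14201 other autosomal genes (3.93%). These were 8 heavy chain and 8 kappa V segments on the cast side and 13 and 11 on the mus side.

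Among heavy chain constant genes, Igha was read more from cast, at 68.2%, 61.6% and 68.8% (log2 cast over mus 0.97, edgeR adjusted p = 5.60e-08), as was Ighm, at 58.2%, 54.8% and 56.5% (log2 0.38, adjusted p = 0.000934). Ighg2c was read more from mus, with cast shares of 34.3%, 20.2% and 32.3% (log2 -1.33, adjusted p = 9.37e-06). Ighg1, Ighg2b, Ighg3, Ighd and Ighe did not pass. The 3 called genes kept the same side of 50% in each unstimulated library.

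Lambda genes had the most unequal constant gene. Iglc1 had cast shares of 87.1%, 86.4% and 88.1% (log2 2.77, edgeR adjusted p = 2.46e-12), while Iglv1, a V segment that joins to it, had 19.5%, 21.3% and 18.9% (log2 -2.01, adjusted p = 1.75e-08). The V and the constant gene thus lay on opposite sides, each within about 3 points between libraries. Iglv2, the close copy of Iglv1 shown above, had 49.7%, 56.1% and 64.5% and did not pass (adjusted p = 0.0628). Iglc3 had 60.2%, 58.7% and 59.8% and passed, though not without unstimulated replicate 3 (adjusted p = 0.0564), and Iglc2 had 62.0%, 54.2% and 77.9% and passed with edgeR (adjusted p = 0.0029) but not with DESeq2 (adjusted p = 0.152). How reads were assigned to an allele is not given in the sources used here, and the part of misassigned reads in such shares was not tested.

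Igkc was close to even, with 47.2%, 43.1% and 47.3% cast, a difference that passed with edgeR (log2 -0.24, adjusted p = 0.000513) but not with DESeq2 (adjusted p = 0.066). Iglv3, at 30.3%, 38.3% and 44.1%, passed with edgeR (log2 -0.72, adjusted p = 0.025) but not with DESeq2 (0.0849), nor without replicate 1 (0.179) or replicate 2 (0.0511).

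The strongest V segments lay near one parent. On the cast side were Ighv2-9, at 94.6%, 95.5% and 90.6% (edgeR adjusted p = 1.45e-08), Ighv3-2, at 95.8%, 90.3% and 97.9%, and Ighv3-1, at 93.3%, 80.4% and 92.7%. On the mus side were Igkv8-30, at 5.45%, 1.78% and 4.82% (adjusted p = 4.60e-09), Igkv14-111, at 17.6%, 9.19% and 14.0%, Igkv6-17, at 2.13%, 2.17% and 2.60%, and Ighv1-53, at 3.70%, 4.44% and 1.87%. Whole families leaned as well: the 2 segments of Ighv11 were read from cast in all 182 of their unstimulated allelic reads and Igkv11 had 90.7% cast of 377 reads, while Igkv13 had 5.49% of 328 and Igkv14 14.1% of 1423. The most abundant V segments were mixed: Igkv10-96 and Igkv1-110 did not pass, at 45.4% and 51.1% of pooled reads, while Ighv9-3 was read more from mus, at 35.3% (adjusted p = 9.89e-06).

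**Figure D5:**
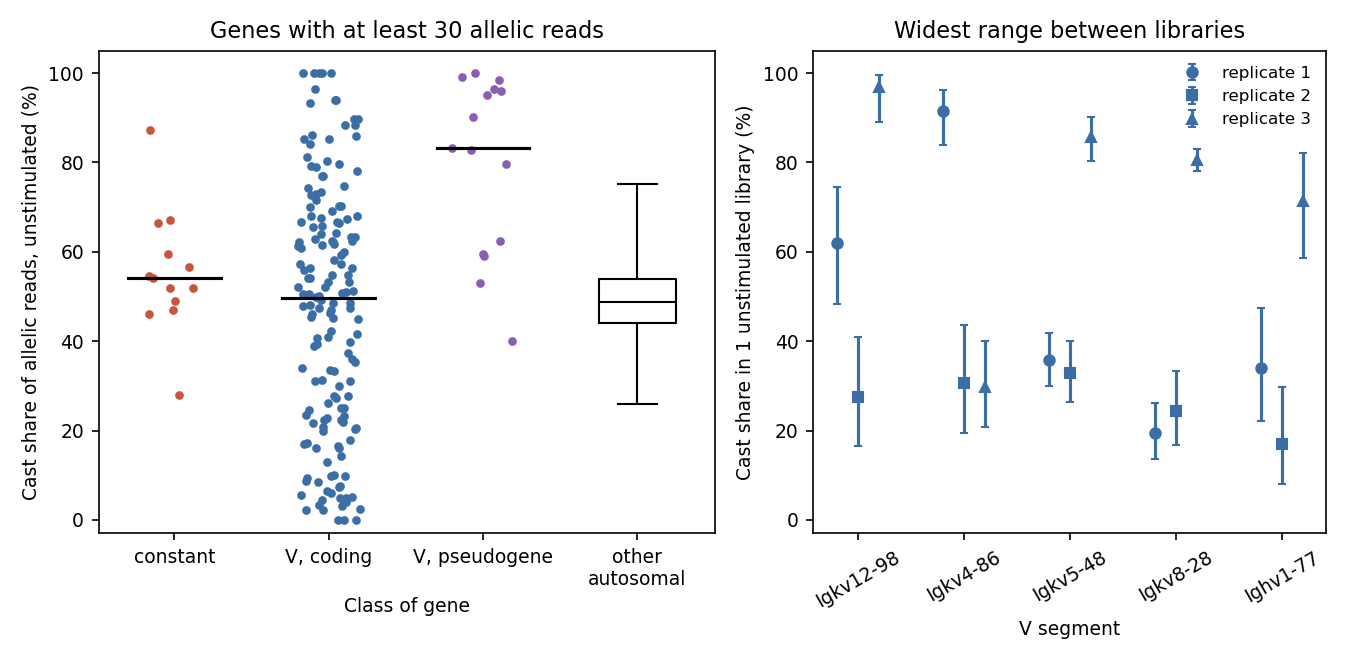
Left, cast share in % of the pooled unstimulated allelic reads of genes with at least 30 such reads, for constant genes, V segments outside and inside the pseudogene biotypes (1 point per gene, bar at the median) and the 14201 other autosomal genes (box with median and quartiles, whiskers at the 5th and 95th percentiles). Right, cast share in % with 95% Clopper-Pearson intervals in each unstimulated library for the 5 V segments with the widest range, where intervals of at least 1 pair of libraries do not overlap for each segment.

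V segments with a pseudogene biotype leaned to cast. Of 130, 61 had a value above 0, and before stimulation 90.8%, 82.6% and 85.6% of their summed reads were cast (86.3% ± 4.14, SD, n = 3). The other V segments had 47.8%, 44.3% and 51.9% (48.0% ± 3.81). Of the 15 pseudogene V segments with at least 30 reads, 14 lay above 50% cast, with a median of 83.3%, against 80 of 162 others with a median of 49.6%. The edgeR test called 10 of the 15 higher from cast and 0 higher from mus, against a background of 11.6% and 16.4%.

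The biotype is that of the C57BL/6 genome, and a script looked there for a stop codon in frame with the ATG of the leader. It found one in 66 of the 72 pseudogene V segments that start with ATG (91.7%) and in 2 of 142 others (1.41%). For 4 cast-leaning segments the stop, in capitals, is shown with 30 bases on either side.
Ighv3-2: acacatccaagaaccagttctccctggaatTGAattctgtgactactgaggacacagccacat
Igkv12-40: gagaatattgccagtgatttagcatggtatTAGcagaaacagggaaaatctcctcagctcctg
Igkv11-106: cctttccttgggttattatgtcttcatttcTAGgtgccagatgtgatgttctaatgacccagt
Ighv1-83: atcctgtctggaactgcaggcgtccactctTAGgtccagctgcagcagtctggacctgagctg
Counted from the A of that ATG, the stops begin at base 301 in Ighv3-2, 169 in Igkv12-40, 46 in Igkv11-106 and 58 in Ighv1-83. The pooled cast shares of these 4 were 95.01%, 99.2%, 96.1% and 96.4%. Ighv4-2, the other abundant pseudogene V segment, had cast shares of 89.0%, 74.7% and 77.4% (edgeR adjusted p = 0.000109), and its annotated transcript does not start with ATG. The cast sequence of these segments was not used here, so whether the stops are present on that allele was not tested.

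Shares of V segments also differed between libraries more than those of other genes. Among genes with at least 50 allelic reads in each unstimulated library and a mean under 1000, the 83 V segments had a median range of 18.9 percentage points between the 3 libraries, and 30.1% of them had a range of at least 25 points. The 7485 other autosomal genes of that depth had a median of 7.59 points, and 3.11% reached 25. The median V segment had 174 reads and the median other gene 294, and counting error widens the range at lower depth.

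The widest range was that of Igkv12-98, with cast shares of 62.1%, 27.6% and 96.9%. Igkv4-86 had 91.5%, 30.6% and 29.8%, and Igkv5-48 had 35.8%, 32.98% and 85.8%, so replicate 1 stood apart for the former and replicate 3 for the latter. Ighv1-77 had 33.9%, 17.0% and 71.4%. Igkv8-28 had the most reads: 33 of 170 were cast in replicate 1 (19.4%, 95% Clopper-Pearson interval 13.8 to 26.2), 28 of 115 in replicate 2 (24.3%, 16.8 to 33.2) and 800 of 992 in replicate 3 (80.6%, 78.0 to 83.1).

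In that library Igkv8-28 was also high in level, at 91.1 RPKM against 14.6 and 12.5. The mus reads of the 3 libraries numbered 137, 87 and 192, so the difference lay mainly in the cast reads. Its nearest relative, Igkv8-19, is 97.6% identical to it and had a similar pattern, at 12 of 56, 10 of 40 and 212 of 273 cast reads and 11.6, 11.4 and 40.9 RPKM, so reads of the pair may not be separable. Intervals cover counting error only. They treat each allelic read as an independent count, which was not tested. Igkv8-28 fell to 0.297, 0.200 and 0.577 RPKM in the stimulated libraries (log2 -4.32, limma adjusted p = 0.00116).

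After stimulation few immunoglobulin genes had reads enough for an allele test. Of 28 with at least 30 allelic reads, edgeR called 6 higher from cast (Iglc1, Igha, Ighg2b, Ighv2-9, Ighv3-2 and Igkv3-12) and 1 higher from mus (Iglv1), against 16.2% and 21.2% of all autosomal genes, together 37.4%. Leaving out a stimulated library left 2 to 3 cast calls. Ighv2-9 kept its side at 85.2%, 95.2% and 95.2% cast, and Igha at 75.3%, 61.7% and 64.5%, although Igha did not pass without replicate 1 (adjusted p = 0.104) or replicate 3 (0.0739) and Ighg2b did not pass on leaving out each stimulated replicate in turn (0.0677 to 0.295) or with DESeq2 (0.0903). Ighm stood at 50.9%, 50.2% and 51.2% and did not pass.

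A change of the cast share between the groups was tested for the same 28 genes as the interaction of allele and group. It passed for 4, with edgeR and a background of 5.95% of genes with a higher and 4.96% with a lower share, together 10.9%. With the replicate number as a block 8 passed, 4 in each direction, and these include the 4 called without the block. Over all 12470 genes of the blocked fit, 922 were called with a higher and 764 with a lower cast share. Iglc3 went from 60.2%, 58.7% and 59.8% cast to 16.3%, 56.2% and 15.1% (log2 change -2.34, adjusted p = 0.00303), on 112 stimulated reads, and stimulated replicate 2 stayed near the unstimulated values. Iglc1 went from 87.1%, 86.4% and 88.1% to 87.0%, 70.3% and 77.4% (log2 -0.94, adjusted p = 0.0153).

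Ighg2b went from 54.8%, 48.1% and 59.0% cast to 86.0%, 69.4% and 66.7% (log2 1.38, edgeR adjusted p = 0.0233), on 103 stimulated reads. Igkv14-111 went from 17.6%, 9.19% and 14.0% to 37.5% and 42.1%, with no allelic read in stimulated replicate 2 (log2 2.14, adjusted p = 0.0402). Iglc3 alone of the 4 passed on leaving out any 1 library. Ighg2b did not pass without stimulated replicate 1 (adjusted p = 0.274), nor did Iglc1 without unstimulated replicate 3 (0.0502) or stimulated replicates 2 (0.097) or 3 (0.107), nor Igkv14-111 without unstimulated replicates 2 (0.0815) or 3 (0.0732). Igkv14-111 could not be fitted without stimulated replicates 1 or 3, which left it under 30 reads. The additional 4 with the block were Igkc, Iglv2, Iglc2 and Ighv3-1. For Igkc the change was from 45.9% ± 2.39 to 49.5% ± 3.79 cast (adjusted p = 0.0238 with the block, 0.122 without it).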

How the data were processed

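RNA of 6 libraries, 3 unstimulated and 3 stimulated, was sequenced from a stranded total RNA kit with ribosomal RNA removal, per the labels' protocols. The submitters' processing notes name STAR 2.7.1a, featureCounts (no version given) and mm10. The deposited RPKM table covers both alleles together, and the deposited allelic tables hold whole-number counts of mus and of cast reads per gene, per the file headers. The gene lengths, the strand setting, the handling of reads that match several genes and the allele assignment are not stated in the labels or headers.

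RPKM were tested with limma 3.58.1 in R 4.3.3 (moderated test with trend, two-sided, pseudocount 1), and allelic counts with edgeR 4.0.16 (quasi-likelihood, library terms, at least 30 reads per group, autosomal genes). DESeq2 1.42.0 served as an alternative. The p-values were adjusted by Benjamini-Hochberg over all genes fitted. Fits were also run on simulated data. The allelic simulation gave all genes the same added spread between libraries, so it does not check the allele tests of V segments. Positions, biotypes and sequences come from GENCODE M21, which matched 49326 of the 49671 genes and all 395 members by identifier. Low RPKM values lay on whole steps, within 0.04 steps, for 92.5% to 93.2% of values.

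Members, gene lists and tests were chosen with earlier results of these data known. Genes named are the constant genes, the V segments (4 per locus), D and J segments (2 per locus) of highest mean, the 10 largest falls, V segments kept at 1 RPKM, the 5 widest cast ranges, interaction calls, and the 5 strongest allele calls per side, with 4 genes of each other list. The other D, J and pseudogene segments named were chosen after their values were seen, as were further genes of the lists. Replicate numbers are shared by both groups without a stated shared animal. Log2 cast to mus ratios of 9043 autosomal genes, centred within groups, correlated between same-numbered libraries at 0.275, 0.286 and 0.173, which is over the limit of 0.1 for pairing, while log2 RPKM correlated at 0.00603, 0.0611 and 0.0908. The test of a change in cast share was planned and reported without the replicate number as a block, and the blocked counts are given beside it. Alternatives were other pseudocounts, filters, scalings, tools and read minimums, the replicate block, and leaving out each library.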

Additional observations from a re-analysis of the deposited data

Results flagged for a closer look

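Genes whose cast share differed between unstimulated and stimulated libraries by the test of that difference, fitted without the replicate block, are set out here. The log2 ratio of cast to mus was higher after stimulation by 2.14 for Igkv14-111, on 35 stimulated reads, and by 1.38 for Ighg2b. It was lower after stimulation for Iglc1, with a change of -0.94, and for Iglc3, with a change of -2.34. For Iglc3 stimulated replicates 1 and 3 had 7 of 43 and 8 of 53 cast reads, while replicate 2 had 9 of 16. With the replicate number as a block, which the correlation of same-numbered libraries calls for, edgeR called these 4 and in addition Igkc (log2 change 0.22, adjusted p = 0.0238), Iglv2 (1.84, 0.0261), Iglc2 (-0.86, 0.00879) and Ighv3-1 (-1.60, 0.0368). That fit called 922 of all 12470 genes with a higher and 764 with a lower cast share.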

How the results depend on the processing

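The counts of immunoglobulin genes called lower stayed within 1.5 times the reported count under every alternative (175 with DESeq2 and 176 with edgeR on summed allelic counts, of 177 fitted, to 242 without the filter), with 0 higher in each. Of all 137 alternatives for counts and summed levels 118 stayed within that margin and 19 did not. For the B cell list 2 genes were higher after quantile normalisation, and 0 to 1 on leaving out a library (0 without unstimulated replicate 2). In stimulated cells 3 genes were cast-higher at a minimum of 100 reads, and leaving out a library gave 2 to 3 cast-higher and 1 to 3 mus-higher genes. The count of genes with a higher cast share after stimulation was 6 at a minimum of 1 read, 1 at 100 reads and 4 with the replicate block, and 1 to 3 on leaving out a library; that with a lower share was 4 with the replicate block and 1 to 3 on leaving out a library. Fewer genes were fitted at higher minimums; the other causes were not tested. The heavy chain ratio of V to constant genes had a log2 change of 0.15 in allelic reads, an alternative chosen after seeing the data, against a fall in RPKM, and the cause was not tested. With the replicate block 207 immunoglobulin genes were lower, and the block ended no call named in the report. Depth limits the stimulated allele tests, where 28 genes had 30 reads.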
